A study of Macaca fascicularis and Macaca mulatta and Papio anubis with 20 samples.

Results

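Expression of 9 transcription factors of the sensory neuron lineage (POU4F1, ISL1, RUNX1, RUNX3, PRDM12, DRGX, TLX3, ETV1 and SHOX2) was examined in spatial transcriptomes of primate dorsal root ganglia. The genes were chosen by symbol: 8 of the 9 were found among the 22000 features counted in *Macaca fascicularis*, where RUNX1 was not listed under its symbol. All 9 were found among the 21369 features of the sections labelled *Papio anubis*, and 8 among the 20842 features of the sections labelled *Macaca mulatta*, where POU4F1 was not listed under its symbol. In *M. fascicularis*, 3 of them carried most of the counts: TLX3 with 6811 unique molecular identifiers (UMIs, each counting 1 captured transcript), ETV1 with 1934 and RUNX3 with 860. RUNX3 and ETV1 were higher in spots rich in PVALB than in spots rich in SCN11A or TAC1, and TLX3 was higher in spots rich in SCN11A or TAC1 than in those rich in PVALB.

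The data were Visium libraries, in which a tissue section lies on a slide of barcoded capture spots, and a spot can hold several cells of different types. Of 20 fresh frozen sections, 16 were labelled *M. fascicularis*, with 4 title codes that each cover 4 sections: 1 code for each sex in each of 2 batches. The sections of a title code were treated as 1 specimen, which the labels neither state nor deny. Between batches and sexes, the 4 specimen sums left 1 degree of freedom, so those p-values lean on a spread moderated across genes. Where kinds of spots were compared within specimens, p-values measure how these differences vary between specimens, again with a moderated spread. The other 4 sections, all of batch 2 and with no sex labelled, were 2 labelled *M. mulatta* and 2 labelled *P. anubis*. No age, injury, transgene or treatment was labelled for any group, and the tissue was the dorsal root ganglion throughout, cut at 10 µm with sections 100 µm apart and permeabilized for 12 min.

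In development, POU4F1 (BRN3A) and ISL1 are broad sensory neuron regulators, and DRGX, TLX3 and PRDM12 take part in setting up pain-sensing and itch-sensing neurons. RUNX3 and ETV1 (ER81) are known for the proprioceptors, the large neurons that report muscle stretch, RUNX1 for small unmyelinated nociceptors, and SHOX2 for touch-sensing mechanoreceptors. PVALB, encoding the calcium buffer parvalbumin, marks large myelinated neurons, SCN11A encodes a sodium channel of nociceptors, and TAC1 encodes the precursor of substance P, made by peptidergic nociceptors.

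The *M. fascicularis* sections held between 1136433 and 7073134 UMIs under tissue, with medians of 398 to 5145 UMIs per spot, and 18594 of 21897 tissue spots in the 15 sections with spot data had at least 200 UMIs. Totals were 190376 and 264661 UMIs under the *M. mulatta* label, and 595020 and 12595205 under the *P. anubis* label. The identifiers of the features point to the other species in these 4 sections: those labelled *M. mulatta* use *P. anubis* identifiers and those labelled *P. anubis* use *M. mulatta* identifiers, so the labels may be crossed and the sections are named here only by label. All 11 matched genes of a 12-gene neuron list (STMN2, TUBB3, UCHL1 and others) were detected in *M. fascicularis*, at a summed level of 7442 to 10869 CPM (UMIs per 1000000 UMIs of the section or class) in batch 1 and 8328 to 12978 CPM in batch 2.

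TLX3, a homeobox factor, was present in every *M. fascicularis* section, at 77.4 to 138 CPM with a median of 103 CPM. Its 4 sections in the batch 1 female specimen read 88.2, 138, 105 and 106 CPM, and those of the male specimen 128, 107, 100.05 and 115 CPM. In batch 2 the female specimen gave 112, 98.7, 95.6 and 101 CPM and the male specimen 102, 95.1, 123 and 77.4 CPM. The 4 specimens overlapped, with means of 109 ± 21.0, 112 ± 12.0, 102 ± 6.93 and 99.4 ± 18.8 CPM (SD, n = 4 sections each).

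ETV1, an ETS-family factor, read 42.2, 33.9, 39.1 and 45.2 CPM in the female specimen of batch 1 and 29.5, 49.98, 34.96 and 48.9 CPM in the male one. In batch 2 it read 18.1, 16.8, 20.3 and 14.3 CPM in the female specimen and 19.9, 13.1, 11.8 and 11.4 CPM in the male one. Every section of batch 2 was below every section of batch 1. Means were 40.1 ± 4.83 and 40.9 ± 10.2 CPM against 17.4 ± 2.52 and 14.1 ± 3.94 CPM (SD, n = 4 sections each).

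RUNX3, a Runt-domain factor, lay between 6.52 and 17.97 CPM. Its means were 15.02 ± 1.43 and 14.0 ± 4.47 CPM in the female and male specimens of batch 1 and 13.2 ± 3.18 and 8.79 ± 2.49 CPM in those of batch 2 (SD, n = 4 sections each). The specimens overlapped, except that the batch 2 male, at 6.52 to 12.3 CPM, lay below the batch 1 female, at 13.05 to 16.4 CPM. SHOX2, a homeobox factor, held 102 UMIs in all, with means of 1.85 ± 1.03, 1.65 ± 0.55, 2.09 ± 0.64 and 0.08 ± 0.16 CPM in the same order (SD, n = 4 sections each). The male specimen of batch 2 had 1 SHOX2 UMI in its first section and 0 in the other 3.

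POU4F1, PRDM12, ISL1 and DRGX were close to the counting limit. POU4F1 held 26 UMIs in 9 of 16 sections, PRDM12 18 in 7, ISL1 9 in 5 and DRGX 5 in 2. Pooled over the 63255489 UMIs of the 16 sections, POU4F1 came to 0.41 CPM (exact 95% Poisson interval 0.27 to 0.60) and DRGX to 0.08 CPM (0.03 to 0.18). Such intervals cover counting error only. The 5 DRGX UMIs came from sections 2 and 3 of the batch 2 female specimen. From the female and male of batch 1 to those of batch 2, POU4F1 held 2, 3, 15 and 6 UMIs, PRDM12 0, 2, 13 and 3, and ISL1 2, 1, 6 and 0. Of these genes only POU4F1 passed the filter of the tests that follow.

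**Figure D1:**
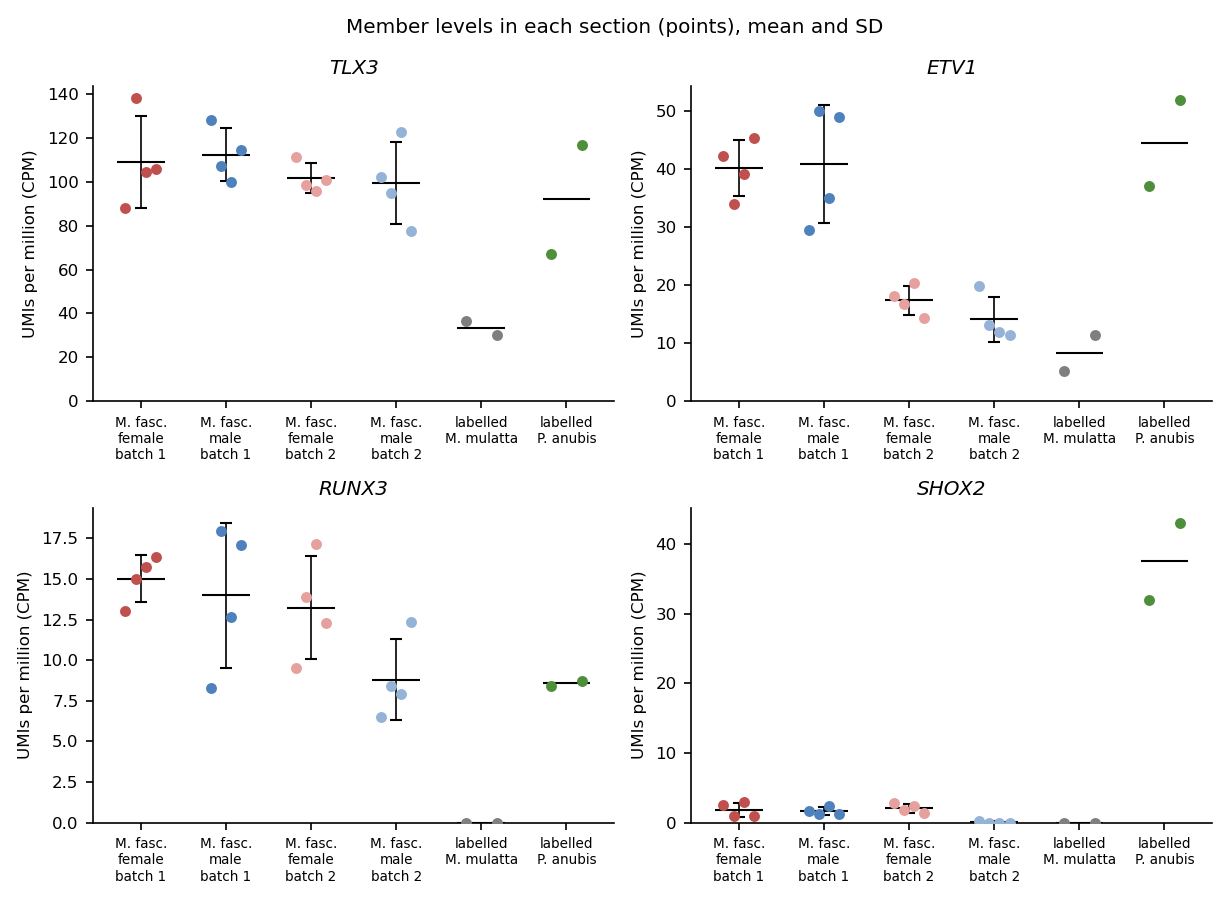
Levels in CPM of TLX3, ETV1, RUNX3 and SHOX2 in each section (points), by specimen or labelled species (horizontal axis), with the mean (line) and, for 4 sections, the SD (bars). ETV1 lies at 29.5 CPM or more in all batch 1 sections and at 20.3 CPM or less in all batch 2 sections, and SHOX2 stands at 31.9 and 43.1 CPM in the sections labelled *P. anubis*.

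Between batches, ETV1 fell in batch 2 and no other member passed the test. The batch 2 level of ETV1 was lower by 1.23 on the log2 scale (log2 fold change -1.23, SE 0.25, adjusted p = 0.0484, edgeR quasi-likelihood test on 4 specimen sums, Benjamini-Hochberg over 12650 genes). Across all genes tested, 364 of 12650 (2.88%) were called between batches, 1.26% higher and 1.61% lower in batch 2, with a median log2 fold change of -0.01, and 5 of the 8 members found passed the filter on low counts. The other tested values, batch 2 over batch 1, were -0.03 (SE 0.21, adjusted p = 0.97, edgeR) for TLX3 and -0.42 (SE 0.34, adjusted p = 0.56) for RUNX3. SHOX2 stood at -0.84 (SE 0.82, adjusted p = 0.64, edgeR) and POU4F1 at 2.50 (SE 0.80, adjusted p = 0.15), the latter resting on 26 UMIs. ETV1 was also the 1 member whose sections did not overlap between batches, against 1030 of 17322 genes (5.95%) overall.

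The ETV1 call lies at the edge of the threshold. Leaving out 1 section ended it in 6 of 16 cases, with adjusted p (edgeR) of 0.0543 without section 3 and 0.0562 without section 4 of the batch 1 male specimen, 0.0886, 0.0903 and 0.0525 without sections 1, 2 and 3 of the batch 2 male specimen, and 0.0542 without section 4 of the batch 2 female specimen. The direction held in all 16, at log2 fold changes of -1.36 to -1.16. Each batch held 2 specimens, and within *M. fascicularis* the Space Ranger version also went with the batch, so batch, specimen and version cannot be told apart. Summed cell type lists moved with the batch too: 8 of 9 myelinating Schwann cell genes matched, at 3305 to 9164 CPM in batch 1 and 1939 to 4064 CPM in batch 2, and 13 of 15 immune genes, at 2206 to 3045 and 727 to 1586 CPM. The 9 matched of 10 fibroblast genes summed to 3065 to 7099 CPM and 1227 to 3340 CPM, and the 5 adipocyte genes to 1005 to 1559 CPM and 2253 to 5929 CPM. Their part in the ETV1 difference was not tested, and in sections fewer cells of a type and less RNA per cell cannot be told apart.

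Within spot classes, both specimens of batch 2 had a lower ETV1 level than both of batch 1 in every class measured, those rich in non-neuronal genes included (the classes are defined with the comparisons that follow). In PVALB-high spots ETV1 stood at 81.3 and 94.95 CPM in the female and male specimens of batch 1 and at 35.4 and 23.1 CPM in those of batch 2. In SCN11A-high spots it was 29.6 and 29.0 against 15.2 and 13.3 CPM, in the same order. For the cell type list classes the lower value of each batch is given first, whichever the sex. Spots rich in the neuron list held 48.7 and 62.2 against 18.3 and 18.5 CPM. Fibroblast-high spots held 40.3 and 48.4 CPM in the 2 specimens of batch 1 against 5.56 and 19.5 CPM in those of batch 2, and immune-high spots 33.5 and 42.9 against 6.87 and 14.1 CPM. Myelin-high spots held 36.0 and 39.1 against 4.87 and 25.3 CPM, vascular-high spots 22.4 and 32.1 against 5.95 and 6.62 CPM, and satellite-high spots 29.99 and 38.9 against 16.7 and 21.9 CPM. Some of these classes held few ETV1 UMIs, with 45 in myelin-high and 44 in vascular-high spots over all 4 specimens. The lowest batch 2 values in myelin-, vascular-, fibroblast- and immune-high spots rest on a few UMIs each. Lower values in batch 2 thus also appeared outside spots rich in neuron genes, in part with wide counting error. These within-class differences between batches were given as values and not tested.

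Between sexes no member was called, and neither was any of the 12650 genes (0.0%, edgeR adjusted p under 0.05). At an unadjusted p under 0.05 edgeR counted 169 genes, none of them a member, and 0.0404% of genes, none a member, had sections that did not overlap between sexes. DESeq2 called 0 after adjustment and counted 179 before it. Log2 fold changes, female over male, were 0.07 (SE 0.21) for TLX3, 0.10 (SE 0.25) for ETV1, 0.44 (SE 0.34) for RUNX3 and 1.44 (SE 0.82) for SHOX2, all with adjusted p = 0.998 in edgeR.

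Other lineage regulators were taken from a list of 40, of which 31 had a symbol in *M. fascicularis* and 18 passed the filter between batches. Of these, 3 were lower in batch 2 and 0 higher, against 1.61% and 1.26% of all genes tested. They were EBF2, a helix-loop-helix factor (log2 fold change -3.53, SE 0.74), RXRG, a retinoid X receptor (-1.79, SE 0.34), and ZEB2, a zinc finger repressor (-1.35, SE 0.22), with edgeR adjusted p of 0.0497, 0.0384 and 0.0230. EBF2 lies at the edge of the threshold, like ETV1, and no values with a section left out are given for these 3. Batch, specimen and version cannot be told apart for them either. The median of the 18 was -0.43, against -0.01 over all genes tested.

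To relate the members to sensory neuron markers, spots with at least 200 UMIs were called PVALB-high, SCN11A-high or TAC1-high when they held at least 2 UMIs of the marker and their depth-adjusted (Pearson) residual lay in the top 10% of their section. This gave 1306 PVALB-high, 1113 SCN11A-high and 1347 TAC1-high spots, while 402 spots high for several markers were left out and 14426 were unmarked. UMIs were summed per specimen and class, so n is 4 specimens, and each fit kept the specimen as a block. Marker-high spots were deeper than unmarked ones: the median UMIs per spot of PVALB-high spots ran from 1976 to 12641.5 over specimens and sections, and that of unmarked spots from 433 to 4536. As a check on the classes, 6 of 8 tested large-fibre genes other than PVALB were higher in PVALB-high than in SCN11A-high spots, among them KCNC1 (log2 fold change 2.73, SE 0.17), a fast potassium channel, and NEFH (2.14, SE 0.08), the heavy neurofilament. The exception that fell was LDB2, a LIM-domain cofactor (-2.14, SE 0.11), and 12 of 13 tested nociceptor genes other than SCN11A and TAC1 were lower, among them TRPV1, the capsaicin receptor (-1.36, SE 0.17). Of all genes tested in this contrast, 17.1% were called higher and 18.2% lower.

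RUNX3 stood at 45.8, 39.9, 37.3 and 23.1 CPM in PVALB-high spots of the female and male specimens of batch 1 and the female and male specimens of batch 2. In SCN11A-high spots of the same specimens it stood at 5.14, 7.48, 5.36 and 1.90 CPM, and in TAC1-high spots at 12.4, 8.95, 5.94 and 1.58 CPM. The last value of each, from batch 2 male classes of 527390 and 634496 UMIs, lies at the counting limit. Unmarked spots held 10.4, 10.5, 9.41 and 7.77 CPM. In each specimen the PVALB-high value was the highest of the 4 classes, with no overlap between PVALB-high and any other class across specimens.

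RUNX3 was thus 5.33 to 8.92 times as high in PVALB-high as in SCN11A-high spots in 3 specimens and 12.2 times in the batch 2 male, whose SCN11A-high spots held 1 RUNX3 UMI, with a log2 fold change of 2.80 (SE 0.20, adjusted p = 2.6e-14, edgeR, n = 4 specimens). Of the 10339 genes tested here, 3646 (35.3%) were called, 17.1% higher and 18.2% lower, so a call alone does not set a gene apart. It was also higher than in unmarked spots (2.03, SE 0.14, adjusted p = 1.6e-14, edgeR, 38.0% of genes called, 17.0% higher and 21.0% lower) and lower in TAC1-high than in PVALB-high spots (-2.33, SE 0.20, adjusted p = 5.1e-12, edgeR, 30.7% called). In SCN11A-high spots RUNX3 was below unmarked spots (-0.76, SE 0.23, adjusted p = 0.0084, edgeR, 30.0% called), a call that ended without the female specimen of batch 1 (adjusted p = 0.0725). TAC1-high spots did not pass against SCN11A-high spots (0.47, SE 0.30, adjusted p = 0.40, edgeR, 8.39% of genes called, 3.44% higher and 4.94% lower) or against unmarked spots (-0.29, SE 0.22, adjusted p = 0.47, 12.7% called, 5.12% higher and 7.59% lower).

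The specimen block bears on these calls, since specimens differed in level. Without it the directions held for every contrast called here, RUNX3 still passed in PVALB-high against each other class, and its call in SCN11A-high against unmarked spots ended (edgeR adjusted p = 0.396).

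ETV1 stood at 81.3, 94.95, 35.4 and 23.1 CPM in PVALB-high spots, in the same order of specimens. It stood at 29.6, 29.0, 15.2 and 13.3 CPM in SCN11A-high spots, at 37.8, 26.8, 12.4 and 9.46 CPM in TAC1-high spots and at 30.1, 33.2, 12.8 and 16.96 CPM in unmarked spots. The classes overlapped across specimens, since batch 2 was lower throughout, but within every specimen the PVALB-high value was the highest.

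The within-specimen ratio of PVALB-high to SCN11A-high spots for ETV1 ran from 1.74 to 3.28, with a log2 fold change of 1.52 (SE 0.14, adjusted p = 1.6e-11, edgeR, n = 4 specimens). Against unmarked spots it was 1.47 (SE 0.11, adjusted p = 3.4e-13, edgeR), and TAC1-high against PVALB-high spots gave -1.54 (SE 0.15, adjusted p = 7.6e-11). The other 3 contrasts of ETV1 were close to 0: -0.05 (SE 0.14) for SCN11A-high and -0.07 (SE 0.15) for TAC1-high against unmarked spots, and -0.02 (SE 0.18) between the last-named pair of markers, with edgeR adjusted p of 0.83, 0.83 and 0.97. Without the specimen block, which leaves the batch difference of ETV1 in the spread, its 3 calls ended at edgeR adjusted p of 0.0522, 0.0855 and 0.0613.

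TLX3 showed another order. It stood at 167, 162, 118 and 112 CPM in SCN11A-high spots and at 128, 133, 126 and 83.5 CPM in TAC1-high spots, again from the female of batch 1 to the male of batch 2. PVALB-high spots held 95.7, 91.6, 85.8 and 77.7 CPM and unmarked spots 96.2, 94.7, 95.9 and 96.6 CPM. The PVALB-high values all lay below the SCN11A-high values, while the TAC1-high value of the male specimen of batch 2 lay below its own unmarked value.

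TLX3 was lower in PVALB-high than in SCN11A-high spots by 0.65 on the log2 scale (log2 fold change -0.65, SE 0.10, adjusted p = 1.2e-06, edgeR, n = 4 specimens), a ratio of 0.57 to 0.73 within specimens. It was higher in SCN11A-high than in unmarked spots (0.60, SE 0.09, adjusted p = 1.2e-06, edgeR). It was higher in TAC1-high than in PVALB-high spots (0.38, SE 0.10, adjusted p = 0.0043, edgeR), a call that ended without the male specimen of batch 1 (adjusted p = 0.0599). TAC1-high against unmarked spots gave 0.32 (SE 0.09, adjusted p = 0.0143, edgeR), and this call ended without the batch 1 female (adjusted p = 0.162), without the batch 1 male (0.226) and with DESeq2 (0.0707). TAC1-high against SCN11A-high spots did not pass (-0.27, SE 0.10, adjusted p = 0.0857, edgeR) but did without the batch 2 female (-0.39, adjusted p = 0.0160) and with sections as the block (-0.25, adjusted p = 0.0346). PVALB-high and unmarked spots were not distinguished (-0.06, SE 0.09, adjusted p = 0.66, edgeR). Without the specimen block the first contrast passed (edgeR adjusted p = 0.0196), and the other 3 calls of TLX3 ended, at 0.0891, 0.259 and 0.9999.

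**Figure D2:**
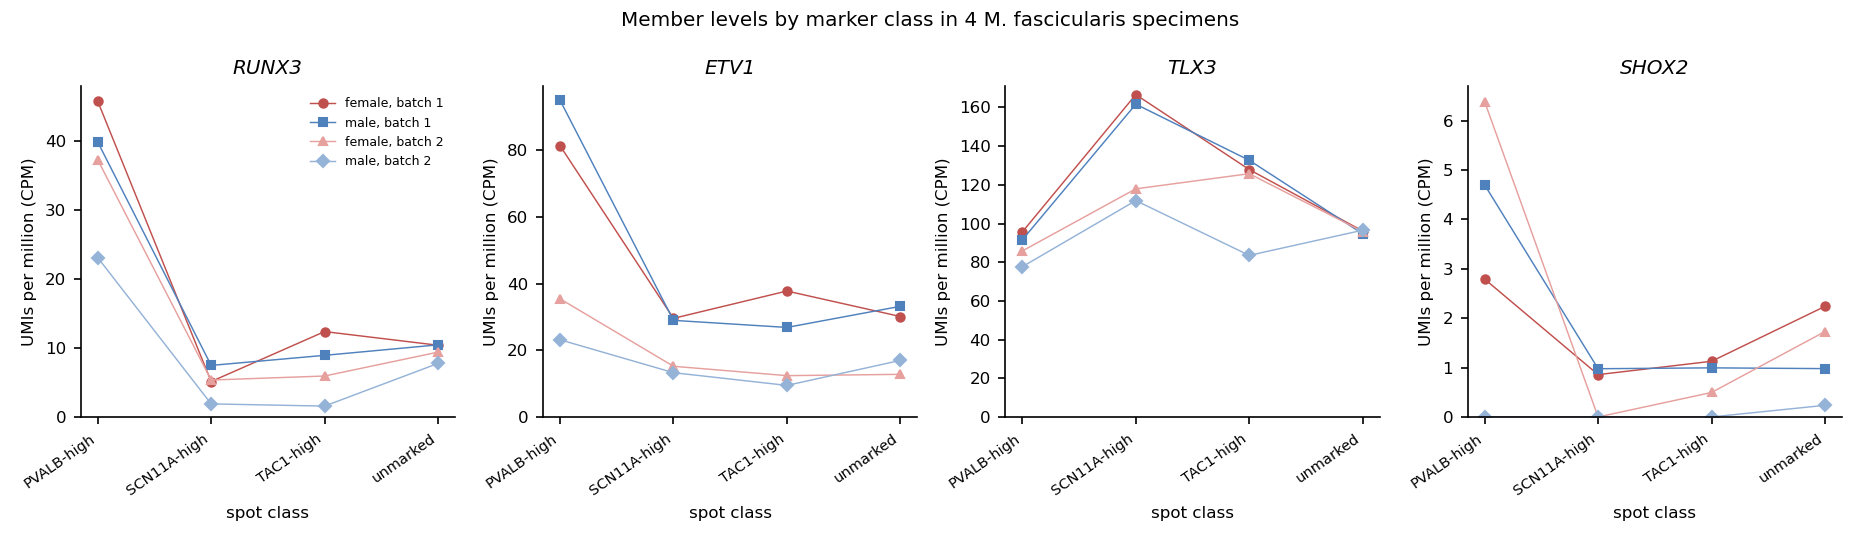
Levels in CPM of RUNX3, ETV1, TLX3 and SHOX2 (vertical axes) in spots high for PVALB, SCN11A or TAC1 and in unmarked spots (horizontal axes), 1 marker and line for each of 4 *M. fascicularis* specimens. RUNX3 is 23.1 CPM or more in PVALB-high spots and 12.4 CPM or less in the other classes, and TLX3 is at 112 CPM or more in SCN11A-high spots and at 95.7 CPM or less in PVALB-high spots.

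SHOX2 and the other sparse members did not pass the filter on low counts in these fits, so 3 of the 8 members found were tested. SHOX2 held 7, 14, 20 and 0 UMIs in PVALB-high spots (2.79, 4.70, 6.38 and 0 CPM), 5 in SCN11A-high and 5 in TAC1-high spots over all 4 specimens. Pooled, that was 4.44 CPM (exact 95% Poisson interval 3.19 to 6.03) in PVALB-high, 0.61 CPM (0.20 to 1.43) in SCN11A-high, 0.78 CPM (0.25 to 1.81) in TAC1-high and 1.45 CPM (1.07 to 1.92) in unmarked spots. With no filter on low counts SHOX2 was higher in PVALB-high than in SCN11A-high spots (log2 fold change 2.82, SE 0.60, edgeR) and than in unmarked spots (1.56, SE 0.38). The male specimen of batch 2 held 1 SHOX2 UMI in these 4 classes, in unmarked spots. PRDM12 and DRGX had 0 UMIs in PVALB-high spots of all specimens, which by 3 counts of the total allows up to 0.33 CPM, against 2 and 1 UMIs in SCN11A-high spots. POU4F1 had 5, 4 and 3 UMIs and ISL1 4, 1 and 1 in PVALB-high, SCN11A-high and TAC1-high spots. These counts do not separate the classes.

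Among the 40 listed regulators, 12 passed the filter in these fits, and in PVALB-high against SCN11A-high spots 3 were higher and 5 lower, beside 17.1% higher and 18.2% lower of all genes tested. Higher were EYA2, a transcriptional coactivator (log2 fold change 2.11, SE 0.34), ETV4, an ETS factor related to ETV1 (0.72, SE 0.20), and MEIS2, a homeodomain cofactor (0.67, SE 0.26). The 3 that fell most were ISL2, a LIM-homeodomain relative of ISL1 (-1.48, SE 0.08), EBF1 (-0.88, SE 0.22) and KLF7, a Kruppel-like factor (-0.83, SE 0.18). In TAC1-high against PVALB-high spots, where 15.1% of all genes tested were higher and 15.6% lower, 6 were higher, led by BCL11A, a zinc finger factor (1.79, SE 0.30), EBF1 (1.07, SE 0.23) and KLF7 (0.83, SE 0.19), and 1 was lower, EYA2 (-2.53, SE 0.39). Between TAC1-high and SCN11A-high spots, where RUNX3, ETV1 and TLX3 did not pass and 3.44% of all genes tested were higher and 4.94% lower, BCL11A was higher in TAC1-high spots (1.32, SE 0.28) and ISL2 lower (-0.77, SE 0.08), at edgeR adjusted p of 0.0013 and 1.5e-09. The medians of the 12 were -0.12, 0.41 and 0.10 in these 3 contrasts, against -0.03, 0.05 and 0.00 over all genes tested.

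Spot by spot, the same orders appeared as weak correlations within sections. These use the same spots and marker residuals that defined the classes, so they are not separate evidence. RUNX3 and PVALB had a Pearson correlation of residuals above 0 in 15 of 15 *M. fascicularis* sections, with a median of 0.18 and a range of 0.04 to 0.44, the highest in section 2 of the batch 1 female. RUNX3 and SCN11A were below 0 in all 15, with a median of -0.05, and RUNX3 and TAC1 were above 0 in 2, with a median of -0.04. ETV1 and PVALB were above 0 in 15 of 15 sections (median 0.15, range 0.02 to 0.27), whereas ETV1 was above 0 with SCN11A in 4 and with TAC1 in 3. TLX3 was above 0 with SCN11A (median 0.08, range 0.02 to 0.25) and with TAC1 (median 0.06, range 0.01 to 0.11) in all 15 and with PVALB in 1 (median -0.05). Points of a section share a library and neighbouring tissue, each correlation rests on 509 to 1806 spots, and in counts this sparse values of such size are a description only. Spearman correlations of depth-scaled UMIs, which are not adjusted for depth in this way, had medians above 0 for RUNX3 and ETV1 with SCN11A and TAC1 and for TLX3 with PVALB (0.05 to 0.18), so those negative signs rest on the residuals. PVALB itself correlated with SCN11A at a median of -0.20 and with TAC1 at -0.12.

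**Figure D3:**
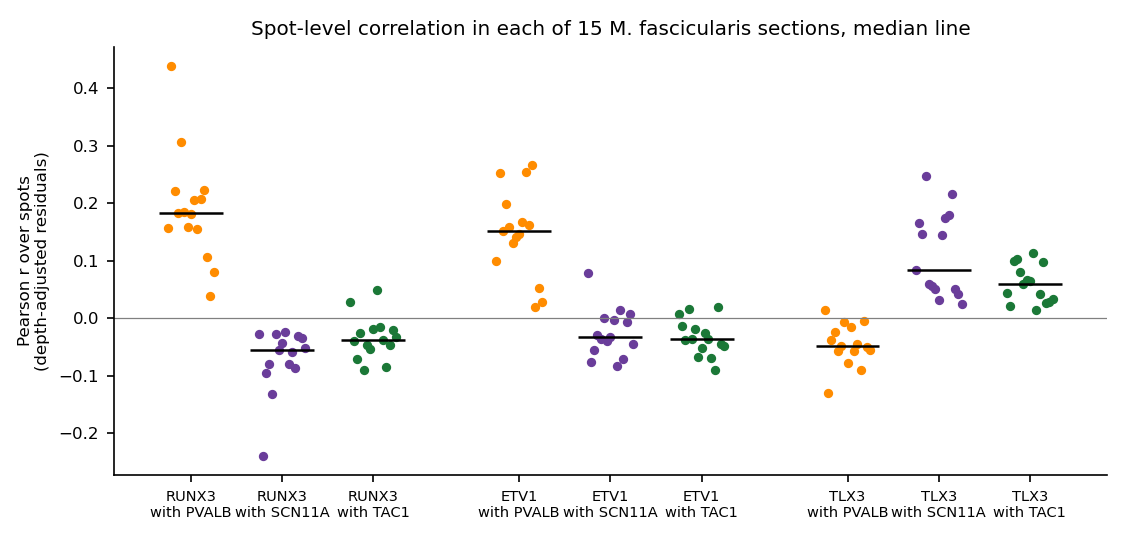
Pearson correlation over spots of depth-adjusted residuals (vertical axis) between RUNX3, ETV1 or TLX3 and PVALB, SCN11A or TAC1 (horizontal axis), 1 point per *M. fascicularis* section with a line at the median. All 15 points lie above 0 for RUNX3 and ETV1 with PVALB and for TLX3 with SCN11A and TAC1, and all 15 lie below 0 for RUNX3 with SCN11A.

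The members correlated little with each other. Median correlations were 0.03 for ETV1 with RUNX3 (above 0 in 12 of 15 sections), -0.02 for ETV1 with TLX3 and -0.02 for RUNX3 with TLX3. With the immune list RUNX3, TLX3 and ETV1 had medians of -0.01, -0.02 and -0.03.

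By cell type list, spots in the top 10% for a summed list of neuron, satellite glia, myelinating Schwann cell, fibroblast, immune or vascular genes were set against 9747 spots high for none. RUNX3 stood at 27.9, 25.4, 16.4 and 13.6 CPM in the 1668 neuron-high spots and at 10.8, 12.0, 11.9 and 8.34 CPM in unmarked ones, higher in each specimen (log2 fold change 1.02, SE 0.16, adjusted p = 9.5e-06, edgeR, n = 4 specimens, with 30.2% of 8974 genes called). ETV1 was also higher (0.49, SE 0.13, adjusted p = 0.0046, edgeR), a call that ended without the batch 1 female (adjusted p = 0.104), without the batch 1 male (0.289) and with DESeq2 (0.0681). Without the specimen block both calls ended, at edgeR adjusted p of 0.293 for RUNX3 and 0.817 for ETV1. TLX3 was not distinguished, at 105 ± 6.54 CPM in neuron-high and 114 ± 12.3 CPM in unmarked spots (SD, n = 4 specimens; log2 fold change -0.05, SE 0.10, adjusted p = 0.75, edgeR). Spots outside this neuron-high class can still hold neurons, as the SCN11A level of 423 ± 173 CPM in unmarked and 225 ± 109 CPM in neuron-high spots shows. The neuron-high class leaned to large-fibre genes. Of 6 tested other than PVALB, 5 were higher and 1 lower, with VSNL1 in both lists. Of 11 nociceptor genes other than SCN11A and TAC1, 1 was higher and 6 lower, beside 14.8% and 15.4% of all genes tested. This contrast thus does not set neurons as a whole against other cells.

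TLX3 was low in myelin-high spots, at 38.2, 30.9, 72.8 and 68.2 CPM, and in vascular-high spots, at 84.9, 67.8, 59.5 and 76.1 CPM, each below the unmarked value of its specimen. Other non-neuronal classes were not all low. TLX3 stood at 112 ± 3.65 CPM in immune-high and 101 ± 20.5 CPM in satellite-high spots, near its neuron-high level of 105 CPM. Fibroblast-high spots held 77.9 ± 23.1 CPM (SD, n = 4 specimens each). RUNX3, which is also known from T and natural killer lymphocytes, stood at 11.6 ± 4.80 CPM in the 1232 immune-high spots against 10.7 ± 1.69 CPM in unmarked spots (SD, n = 4 specimens). A list of 5 T and natural killer cell genes summed to 9.27 to 37.3 CPM per section, with all 5 detected in both batches. Myelin-high spots held 10 RUNX3 UMIs in all, 6.76 CPM pooled (exact 95% Poisson interval 3.24 to 12.4). ETV1 was at 16.8 ± 12.7 CPM in vascular-high and 36.9 ± 22.1 CPM in neuron-high spots, where the SD holds the batch difference. These classes other than neuron-high were described and not tested.

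**Figure D4:**
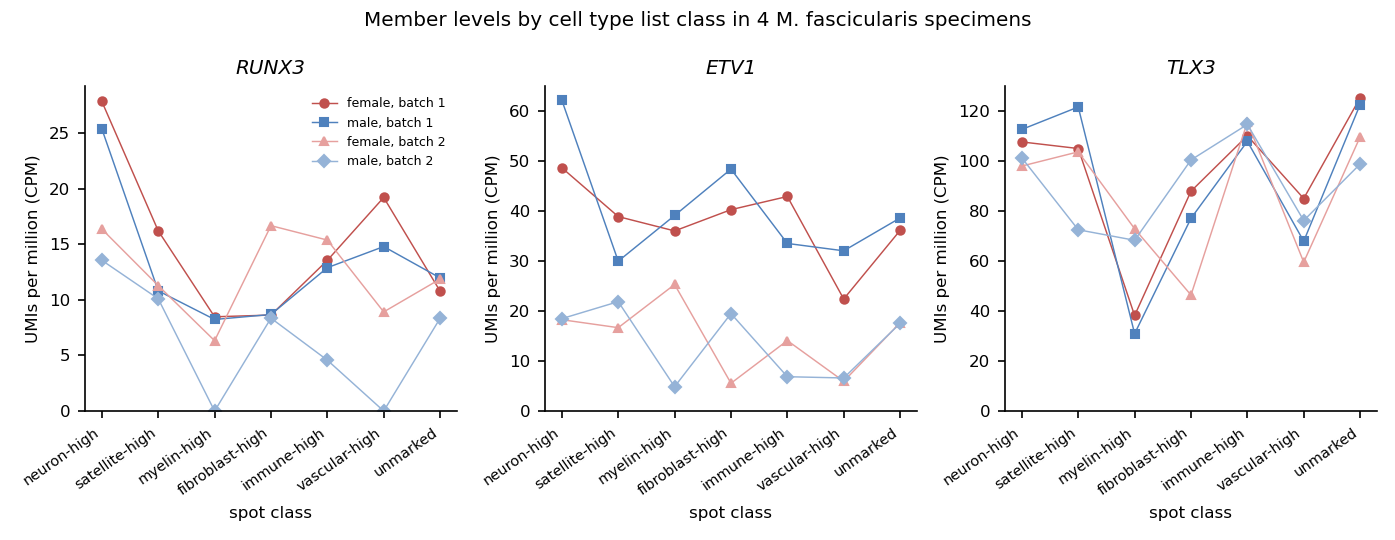
Levels in CPM of RUNX3, ETV1 and TLX3 (vertical axes) in spots high for a summed cell type list and in unmarked spots (horizontal axes), 1 marker and line for each of 4 *M. fascicularis* specimens. RUNX3 in neuron-high spots is above unmarked spots in every specimen, and TLX3 is lowest in myelin-high spots of the 2 batch 1 specimens, at 38.2 and 30.9 CPM.

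Genes with the pattern most like a member were ranked over the 44 specimen-by-class sums, centred per specimen, among 7058 named genes of at least 10 CPM. For RUNX3 they were KCNC1 (Pearson r 0.88), CALB2, which encodes the calcium-binding protein calretinin (0.84), and SNCB, which encodes beta-synuclein (0.82). For TLX3 they included MAP4 (0.90), a microtubule-associated protein, and TPPP3 (0.90), a tubulin polymerization-promoting protein. For ETV1 they were DNAAF3 (0.76), an axonemal dynein assembly factor, ATP5PF (0.75), a subunit of the mitochondrial ATP synthase, and KCNC1 (0.74). The sums share specimens, and marker and list classes share spots, so the values are descriptions.

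Spatial clustering was taken from the authors' deposited Moran's I, a score near 0 for a scattered gene and higher where neighbouring spots are alike, with a p-value adjusted within each section. TLX3 had an adjusted p under 0.05 in 12 of 16 *M. fascicularis* sections, ETV1 in 4, RUNX3 in 3, SHOX2 in 1 and the others in 0. Over all genes and sections listed, 35677 of 220436 values (16.2%) were called, and 6.96% at a Moran's I of at least 0.05. The median Moran's I was 0.031 for TLX3 (range 0.00016 to 0.144), 0.0064 for ETV1 and 0.0054 for RUNX3, and the highest TLX3 values were 0.144 in section 2 of the batch 1 female and 0.140 in section 1 of the batch 1 male. Ranked among the genes of each section, the Moran's I of TLX3 had a median percentile of 90.0 over sections, against 69.0 for RUNX3 and 65.2 for ETV1. PVALB was called in 14 and SCN11A and TAC1 in 16 of 16 sections, at median scores of 0.090, 0.112 and 0.214.

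All ETV1 calls came from batch 1, with Moran's I of 0.048, 0.051 and 0.023 in sections 1 to 3 of the female and 0.025 in section 2 of the male. RUNX3 was called in section 2 of the batch 1 female (0.054), section 4 of the batch 1 male (0.035) and section 3 of the batch 2 male (0.039). The SHOX2 call, 0.087 in section 4 of the batch 2 female, rested on 7 UMIs.

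Across labelled species, TLX3 was at 67.2 and 117 CPM in the sections labelled *P. anubis* and at 36.8 and 30.2 CPM in those labelled *M. mulatta*, where it rested on 7 and 8 UMIs (exact 95% Poisson intervals 14.8 to 75.8 and 13.1 to 59.6 CPM). ETV1 was at 37.0 and 51.9 CPM under the *P. anubis* label, the first within and the second just above the *M. fascicularis* range of 11.4 to 49.98 CPM and both above the 8 *M. fascicularis* sections of batch 2, the batch of all labelled sections, at 11.4 to 20.3 CPM, and RUNX3 at 8.40 and 8.73 CPM, within the *M. fascicularis* range. The sections labelled *M. mulatta* held 1 and 3 ETV1 UMIs and 0 UMIs of RUNX1, RUNX3, SHOX2, ISL1, PRDM12 and DRGX, which by 3 counts of the total allows up to 15.8 and 11.3 CPM in each section. Each of these labels covered 2 sections of 1 title code, so species were not tested. Label, gene models and specimen cannot be told apart. Summed cell type lists differed too. Fibroblast genes stood at 12013 and 22172 CPM (*M. mulatta* label) and 10176 and 5618 CPM (*P. anubis* label), against 1227 to 7099 CPM in *M. fascicularis*. Neuron genes stood at 9576 and 3839 CPM and at 9717 and 17417 CPM, against 7442 to 12978 CPM. Their part in the level differences between labels was not tested.

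SHOX2 differed most between labels. It stood at 31.9 and 43.1 CPM in the 2 sections labelled *P. anubis*, with 19 and 543 UMIs, against 0 to 2.97 CPM in the 16 *M. fascicularis* sections. Over the 13088 genes with a symbol in all 3 feature sets, its mean was 69.0 ± 15.3 CPM (SD, n = 2 sections) under the *P. anubis* label and 2.23 ± 1.60 CPM (SD, n = 16 sections) in *M. fascicularis*, 31.0 times as high. On the same scale ETV1 was 1.88 times, TLX3 1.03 times and RUNX3 0.79 times the *M. fascicularis* mean. In the sections labelled *M. mulatta*, TLX3 was 0.40 times and ETV1 0.37 times that mean. Against the 8 *M. fascicularis* sections of batch 2 alone, a reference chosen after seeing the data, ETV1 was 3.25 times as high under the *P. anubis* label (81.7 ± 20.4 CPM, SD, n = 2 sections, against 25.2 ± 6.14 CPM, SD, n = 8 sections) and 0.65 times as high under the *M. mulatta* label. TLX3 was then 1.05 and 0.41 times as high under these labels, and under the *P. anubis* label RUNX3 was 0.89 times and SHOX2 38.8 times as high.

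RUNX1 was measurable only under the *P. anubis* label, at 33.6 CPM (20 UMIs, exact 95% Poisson interval 20.5 to 51.9) in section 1 and 29.0 CPM (365 UMIs, 26.1 to 32.1) in section 2. Spot classes are given for section 2 alone. In section 1 the 787 spots with at least 200 UMIs held 11 RUNX1, 4 RUNX3, 36 TLX3, 12 ETV1 and 17 SHOX2 UMIs. In section 2 RUNX1 was at 42.8 CPM (34.1 to 53.1) in TAC1-high, 27.9 CPM (24.3 to 31.9) in unmarked and 16.7 CPM (11.8 to 23.1) in PVALB-high spots. It was lower in neuron-high spots, at 11.3 CPM (8.06 to 15.5), than in spots high for no list, at 33.4 CPM (29.2 to 38.0). Myelin-high spots held 14 RUNX1 UMIs, or 83.1 CPM (45.4 to 139), and immune-high spots 36.1 CPM (22.3 to 55.2), so its level was not confined to spots rich in neuron genes. With classes given for 1 section there is no replicate and no test.

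In that section RUNX3, ETV1 and SHOX2 were again at their highest in PVALB-high spots, and TLX3 was higher in TAC1-high than in PVALB-high spots. RUNX3 stood at 28.03 CPM (exact 95% Poisson interval 21.5 to 35.9) in the 204 PVALB-high spots, 4.13 CPM (1.78 to 8.13) in the 221 TAC1-high spots and 4.81 CPM (3.38 to 6.62) in unmarked spots. ETV1 was at 99.0, 45.9 and 40.9 CPM in the same classes, with TAC1-high above unmarked spots. In *M. fascicularis* the TAC1-high value was below the unmarked one in 3 of 4 specimens, but that contrast was close to 0 (log2 fold change -0.07, SE 0.15, adjusted p = 0.83, edgeR). A difference between the labels in this order was not tested. TLX3 was at 102, 149 and 109 CPM. SHOX2 was at 95.4 CPM (83.0 to 109) in PVALB-high, 19.1 CPM (13.4 to 26.3) in TAC1-high and 34.5 CPM (30.5 to 39.0) in unmarked spots. SCN11A held 182 UMIs in the whole section (14.4 CPM), so 18 spots were SCN11A-high. RUNX3 had 0 UMIs there, which by 3 counts of the total allows up to 13.2 CPM. Correlations with PVALB in this section were 0.26 for SHOX2, 0.21 for RUNX3 and 0.18 for ETV1, and with TAC1 they were 0.08 for both RUNX1 and TLX3 and -0.10 for SHOX2.

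**Figure D5:**
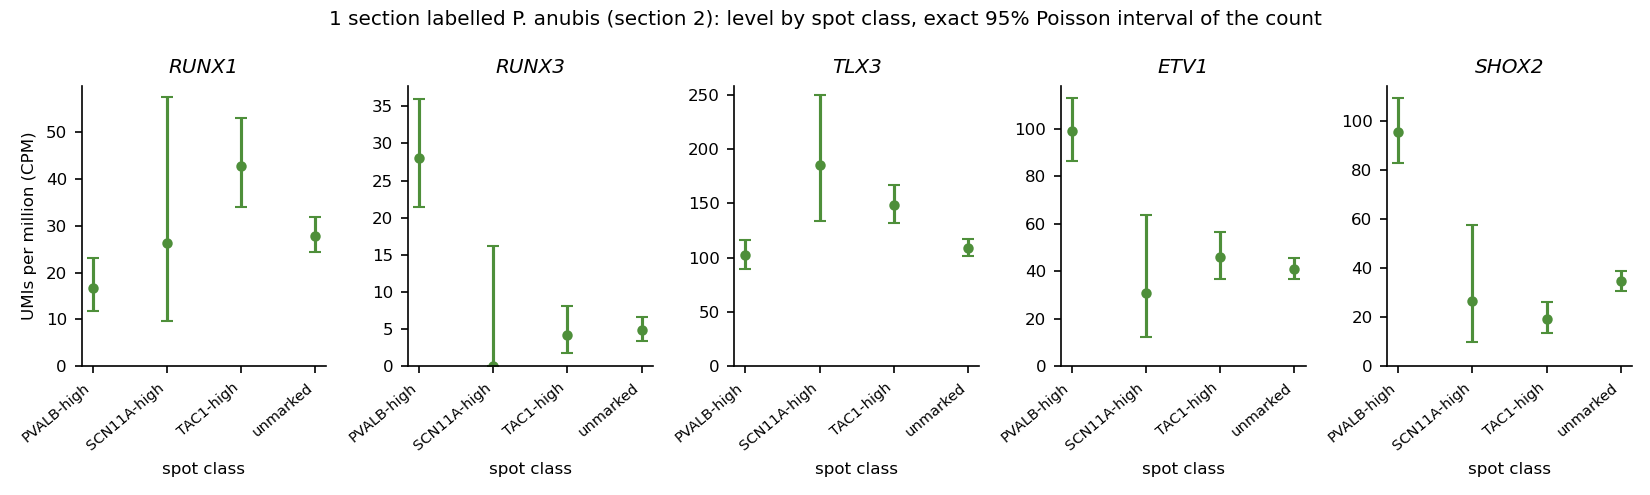
Levels in CPM (vertical axes) of 5 members in section 2 labelled *P. anubis*, in spots high for PVALB, SCN11A or TAC1 and in unmarked spots (horizontal axes), with exact 95% Poisson intervals of the count. RUNX3, ETV1 and SHOX2 are highest in PVALB-high spots (28.03, 99.0 and 95.4 CPM), and RUNX1 stands at 42.8 CPM in TAC1-high against 16.7 CPM in PVALB-high spots.

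In that section the deposited Moran's I was 0.069 for TLX3 and 0.046 for SHOX2, both called, and 0.015 for RUNX3 (deposited adjusted p = 0.056), while RUNX1 stood at -0.0027. Of all values listed under the *P. anubis* label 14.1% were called (4.08% at a Moran's I of at least 0.05), and under the *M. mulatta* label 3.04% (0.429%), with no member among the latter.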

How the data were processed

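The deposited matrices hold counts of UMIs for each gene in each spot. Per the file headers, Space Ranger was at version 2.0.0 for 12 sections and 2.1.0 for 7. The submitters' processing notes name the build Mmul_10, while the features of *M. fascicularis* carry *M. fascicularis* identifiers, so no coordinates are given. The authors' deposited tables give summed counts, Moran's I (a score) and its p-value and adjusted p-value per gene. 1 section (batch 2 male, section 3) entered through its table alone, without spots. Table and matrix sums differed for 0 genes.

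Only spots under tissue were used, with no call of doublets, because a spot is a region rather than 1 cell. Spot barcodes are a fixed set printed on the slides. Members are all 9 genes named, and other regulators are named at an adjusted p under 0.05, at most the 3 largest each way. Genes most like a member are the 3 with the highest correlation, of which 1 is not reported here. Members, lists and classes were chosen with earlier results of these data known. Residuals used a negative binomial theta of 100. Counts summed per specimen, or per specimen and class, were tested with edgeR 4.0.16 (R 4.3.3; TMM, filterByExpr, quasi-likelihood), with Benjamini-Hochberg adjustment over all genes tested, and with DESeq2 1.42.0 as an alternative. The fits were also run on simulated counts with known changes in 200 genes of higher count. That setting does not cover sparse members, and nothing about the members is drawn from it. Pairs of sections in a group differed by more than sampling noise (lowest chi-square per degree of freedom 3.93). Deviations of same-numbered sections from their group means correlated at 0.24 to 0.42 in all 4 pairs of batch 1 female with male. In the other 20 pairs they correlated at -0.08 to 0.17, of which 2 were over 0.1. Sections of unlike number were not compared, so whether the number itself pairs sections was not tested. The labels do not say what the numbers share. Alternatives were other spot minimums (1000 UMIs), other shares of spots, blocks, size factors, no filter and each section or specimen left out.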

Additional observations from a re-analysis of the deposited data

Results flagged for a closer look

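Of 67 groups of 4 values tested for a value far from the rest, 5 held one, and chance gives about 1 in 20. The deposited Moran's I of TLX3 was 0.140 in section 1 of the batch 1 male specimen, far above its other sections, and 0.00016 in section 2 of the batch 2 male specimen, far below them. The Moran's I of SHOX2 was 0.0872 in section 4 of the batch 2 female specimen, on 7 UMIs. TLX3 stood at 83.5 CPM in TAC1-high spots of the batch 2 male specimen, below the other 3 specimens. RUNX3 stood at 16.7 CPM in fibroblast-high spots of the batch 2 female specimen, above the other 3, on 9 UMIs.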

How the results depend on the processing

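Deviations of same-numbered sections correlated at 0.24 to 0.42 between the batch 1 specimens and less between the others, with no comparison to unlike-numbered sections. With the section number as a replicate block over all 4 specimens, 1 member was called between batches and ETV1 stood at -1.20. Over the sections of batch 1 alone, 1 female against 1 male specimen and chosen after seeing the data, 0 members were called between sexes with or without that block, at -0.0245 and -0.0383 for ETV1 and -0.0365 and -0.0272 for TLX3, against 0.10 and 0.07. Against *M. fascicularis* of batch 2 alone, the log2 ratio of ETV1 was 1.70 (*P. anubis* label) and -0.63 (*M. mulatta* label), against 0.91 and -1.42. Members called ranged, with each section left out, from 0 to 1 between batches and stayed at 0 between sexes. With each specimen left out they ranged from 3 to 4 (PVALB-high over SCN11A-high), 2 to 4 (TAC1-high over PVALB-high), 0 to 1 (TAC1-high over SCN11A-high), 2 to 3 (PVALB-high over unmarked), 1 to 2 (SCN11A-high over unmarked), 0 to 1 (TAC1-high over unmarked) and 1 to 2 (neuron-high over unmarked). Without the specimen block, members called fell to 1 for TAC1-high over PVALB-high and for PVALB-high over unmarked spots, and to 0 for SCN11A-high, TAC1-high and neuron-high over unmarked spots. With the section as block 1 was called for TAC1-high over SCN11A-high spots. Neuron-high over unmarked spots gave 1 with the section as block, with the top 5% of spots and with DESeq2 (RUNX3 was not tested in the first pair), and TAC1-high over unmarked spots gave 0 with DESeq2. Values near 0 changed sign. ETV1 in TAC1-high over SCN11A-high spots was 0.0615 at 1000 UMIs, 0.0410 with shared spots assigned and 0.0082 with the section as block. Against unmarked spots ETV1 was 0.17 (SCN11A-high, top 20%), 0.0059 (SCN11A-high, no block), 0.0403 (TAC1-high, top 20%) and 0.0143 (TAC1-high, shared spots assigned). TLX3 in PVALB-high over unmarked spots was 0.0738 at the top 20%, and POU4F1 between sexes -0.0172 with DESeq2. Left-out ranges that cross 0 were -0.0761 to 0.0427 (TLX3 between batches), -0.42 to 0.40 (POU4F1 between sexes), -0.24 to 0.0518 (ETV1, TAC1-high over SCN11A-high), -0.0804 to 0.0321 (TLX3, PVALB-high over unmarked), -0.11 to 0.0109 (ETV1, SCN11A-high over unmarked) and -0.31 to 0.0548 (ETV1, TAC1-high over unmarked). Over all features, the log2 ratio of TLX3 to *M. fascicularis* was -1.66 (*M. mulatta* label) and -0.20 (*P. anubis* label), against -1.33 and 0.04 over shared genes. At a Moran's I of at least 0.05, 6 of 20 member calls remained. Spearman medians over depth-scaled UMIs were 0.0586 (RUNX3 with SCN11A), 0.0526 (RUNX3 with TAC1), 0.18, 0.30 and 0.20 (TLX3 with PVALB, SCN11A and TAC1), 0.11 (ETV1 with SCN11A) and 0.0793 (ETV1 with TAC1), so the negative signs of RUNX3 and ETV1 with SCN11A and TAC1 and of TLX3 with PVALB hold for residuals and not for these ranks. The causes were not tested. Depth limits POU4F1, ISL1, PRDM12, DRGX and the sections labelled *M. mulatta*.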
